A study of Hordeum vulgare with 64 samples.

Results

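Plant roots under water lose most of their supply of oxygen, because gases move slowly through flooded soil. As general background, the early response of plant roots to flooding includes a rapid rise of transcripts for fermentation, sugar use and ethylene signalling, many of them under transcription factors that are stabilised at low oxygen, and part of the transcripts that rise within the first hour of a stress fall again while the stress lasts. The barley genes described here had such a short-lived rise in the roots of both varieties under waterlogging. They were 41 of the 39734 rows with HORVU identifiers in the waterlogging table, or 0.103%. No names or functions were paired with these identifiers in the sources used here, so each gene is given by its identifier, and no sequence is shown.
The study compared NasoNijo (NN), given as sensitive to salt and waterlogging, with TX9425 (TX), given as tolerant to both, grown together in pots. Pots of seedlings were flooded until water stood over the soil, for a period of 1 h, 72 h or 2 w. In a separate experiment seedlings received NaCl for 1 h, 24 h or 10 d, and leaves and roots were taken for RNA sequencing. Each variety, tissue and time gave 2 libraries, 64 in 32 groups, and each experiment had its own untreated leaves and roots of both varieties, labelled 0 h and called controls here. As these are the sole controls, the hour of sampling and, at 10 d and 2 w, the age of the plants cannot be told apart from the stress.
Levels are in FPKM, which correct the fragment count of a gene for its exon length and for the size of the library, and differences are on the log2(FPKM + 1) scale, which understates the change of low genes. A member had a mean difference from control of at least 2 after 1 h and of less than 0.5 after 72 h and after 2 w, in NN and in TX. The members were thus chosen by their FPKM in waterlogging roots, and every value from those libraries is a description with no test. Tests were made in the other libraries, with limma on log2(FPKM + 1). Calls needed a p under 0.05 after Benjamini-Hochberg adjustment and a log2 change beyond 1. The study's methods call its replicates biological, but the labels do not say what separates the 2 libraries of a group, so the p-values measure no more than their spread.
The 1 h condition was met by 450 rows in NN (1.13%), by 650 rows in TX (1.64%) and by 358 rows in both (0.901%). Of these 358 genes, 317 failed a later condition, 69 at 72 h alone, 59 at 2 w alone and 189 at both times, and 83 of the 317 were at or above 0.5 in all 4 late means. The members are thus the minority whose 1 h rise had gone by 72 h and was not seen at 2 w. The upper limit of 200 genes set by the rule was not reached.
The labelled tissue of the waterlogging libraries was checked by medians. A set of 20 genes had at least 5 FPKM in every salt root and under 0.1 FPKM in every salt leaf. Its median was at least 12.7 FPKM in each waterlogging root library, and no waterlogging leaf library had a median above 0.0632 FPKM. The salt libraries chose the set, so it does not check them. Single genes of the set reached up to 3.81 FPKM in a waterlogging leaf library, and a small share of root RNA in leaves was not tested. The sum of FPKM was 411658 to 482953 in the waterlogging roots. Rows with ENSRNA identifiers took 14.6% of it in replicate 1 of TX at 1 h, against 0.437% to 1.25% in the other 15 root libraries, and the member medians of the TX libraries at 1 h were 11.2 and 13.6 FPKM.
Over the members, the median level in waterlogging roots was 1.26 to 2.09 FPKM in the 4 control libraries and 11.2 to 15.1 FPKM in the 4 libraries at 1 h. It was 0.206 to 0.818 FPKM at 72 h and 0.769 to 1.36 FPKM at 2 w. In 40 of the 41 members all 4 libraries at 1 h were above the other 12 root libraries, a separation that the rule itself favoured. The difference at 1 h was 2.01 to 3.82 in NN, with a median of 2.42, and 2.003 to 3.97 in TX, with a median of 2.45. The median over all HORVU rows was 0 in both.

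**Figure D1:**
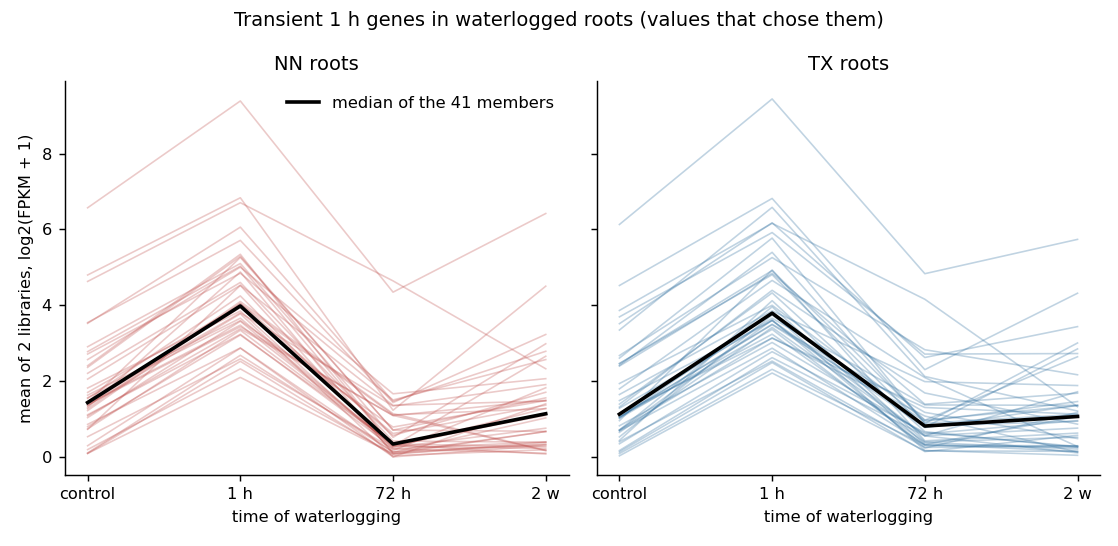
Mean log2(FPKM + 1) of 2 libraries at each time of waterlogging in roots of NN (left) and TX (right), with a thin line for each of the 41 members and a thick line for their median. All lines peak at 1 h, since the rule asked for a difference of at least 2, and in NN most lie below their control level at 72 h.

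HORVU3Hr1G031970 stood first when members were ranked by the smaller of their 1 h differences. It had 0.377 and 0.989 FPKM in NN control roots and 13.6 and 35.1 FPKM after 1 h. In TX it had 1.00 and 0.877 FPKM in control roots and 28.8 and 30.2 FPKM after 1 h. The differences were 3.80 in NN and 3.97 in TX, and after 72 h no library of either variety was above 0.443 FPKM. The replicates of NN at 1 h lay further apart than those of TX.
HORVU7Hr1G000260 was the most abundant member at 1 h and also in waterlogging control roots. It had 103 and 85.7 FPKM in NN controls and 55.4 and 86.0 FPKM in TX controls. After 1 h it had 673 and 666 FPKM in NN and 732 and 659 FPKM in TX. It then lay below its controls, at 10.6 and 34.6 FPKM in NN and 22.4 and 33.7 FPKM in TX after 72 h. After 2 w the NN libraries were at 90.4 and 79.3 FPKM and the TX libraries at 61.6 and 44.5 FPKM, so both varieties had returned to about the control range.
HORVU7Hr1G100570 had 3.71 and 4.96 FPKM in NN controls, 47.4 and 33.1 FPKM after 1 h, 0.206 and 0.197 FPKM after 72 h and 1.21 and 1.68 FPKM after 2 w. In TX the same gene had 5.50 and 3.37 FPKM in controls, 46.3 and 36.5 FPKM after 1 h, 0.803 and 0.897 FPKM after 72 h and 1.64 and 0.797 FPKM after 2 w. Its 1 h differences were close, 2.94 in NN and 2.98 in TX, and it remained below its controls at both later times in both varieties. HORVU1Hr1G082410, also among the first in rank, had instead come back to its control level. It had 1.99 and 0.819 FPKM in NN controls, 16.7 and 14.4 FPKM after 1 h and 0.925 and 1.42 FPKM after 72 h.
Other abundant members show how the later course varied. HORVU7Hr1G078760 had the largest drop at 72 h, from 40.8 and 17.5 FPKM in NN controls and 96.1 and 133 FPKM after 1 h to 0.574 and 2.50 FPKM, a difference from control of -3.57. In TX it went from 26.9 and 17.9 FPKM in controls to 2.40 and 6.14 FPKM after 72 h, a difference of -2.22, and by 2 w it was at 13.2 and 35.2 FPKM in NN and 25.1 and 14.3 FPKM in TX. HORVU2Hr1G089990 had the reverse order. It was near its controls at 72 h, with differences of 0.01 in NN and 0.30 in TX, and far below them at 2 w, with differences of -2.30 and -2.54. HORVU1Hr1G024860 had 59.4 and 72.8 FPKM in NN and 48.3 and 73.1 FPKM in TX after 1 h, and its mean was below that of its controls at both later times in both varieties. In TX the libraries overlapped, with 5.35 and 25.35 FPKM in controls and 3.34 and 8.89 FPKM after 72 h.
HORVU7Hr1G122770 was the member whose libraries overlapped. It had 37.1 and 1.71 FPKM in the TX controls and 178 and 50.2 FPKM in TX after 1 h, against 0.423 and 0.954 FPKM and 6.22 and 13.2 FPKM in NN. Replicate 1 of the TX controls thus lay above both NN libraries at 1 h. With 2 libraries a group, its TX difference of 3.24 rests on widely spread values.
At 72 h the members tended to lie below their controls, and further below in NN than in TX. The median difference from control was -0.79 in NN, where 27 of 41 members were below -0.5 and 17 below -1. In TX it was -0.36, with 18 members below -0.5 and 8 below -1. The 72 h difference was lower in NN than in TX for 36 of the 41 members, and 25 were below 0 in both. Over all HORVU rows the median difference was 0 in both varieties. Their median level was 0.312 and 0.273 FPKM in NN controls and 0.164 and 0.191 FPKM at 72 h. In TX it was 0.242 and 0.230 FPKM in controls and 0.206 and 0.205 FPKM at 72 h. Whether the gap between the varieties is particular to the members was not tested. The rule set an upper limit of 0.5 at this time in both varieties, which holds down both medians. Among the other 317 genes of the 1 h condition, 153 were at or above this limit in NN at 72 h and 252 in TX. The limit thus left out more genes by their TX than by their NN values. At 2 w the medians were -0.29 in NN and -0.08 in TX, with 16 and 15 members below -0.5, and 13 members were below 0 in all 4 late means.

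**Figure D2:**
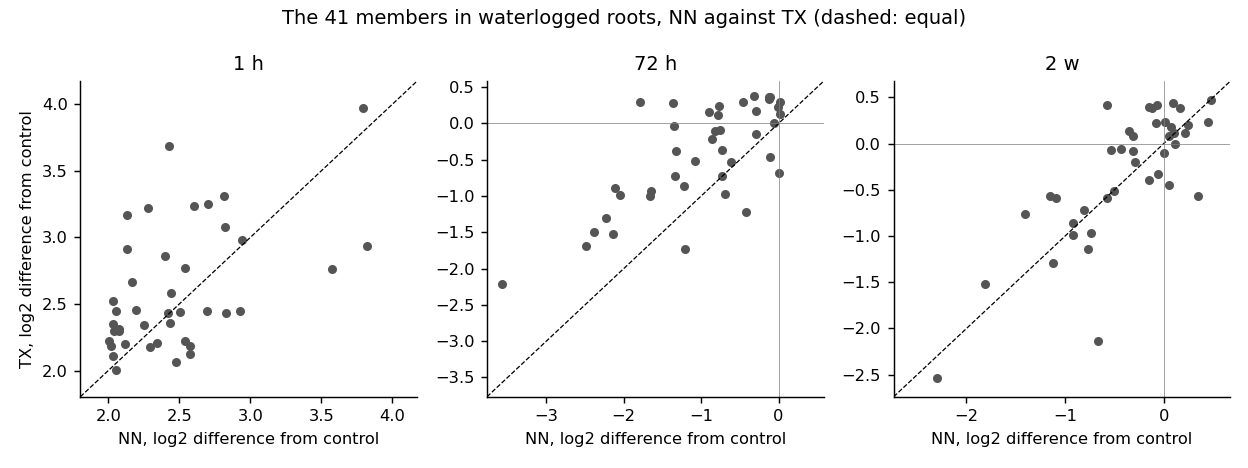
Difference from control on the log2(FPKM + 1) scale in waterlogged roots, NN on the x axis and TX on the y axis, for the 41 members at 1 h, 72 h and 2 w, with a dashed line where both are equal. At 72 h 36 members lie above the line, with the lower value in NN, while at 1 h 27 lie above it.

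Among the members the size of the 1 h rise was similar in the varieties. The rule favoured this, as it asked for a difference of at least 2 in both and so left out genes that rose in 1 variety alone. The rise was larger in TX for 27 of 41 members, with a median of TX minus NN of 0.17 and a range of -0.89 to 1.26. The varieties were within 0.5 of each other for 33 members. The members with the most different rises had uneven replicates in part. HORVU3Hr1G072630 had the largest excess in TX, 1.26, with 0.185 and 0.539 FPKM in TX controls and 10.6 and 25.1 FPKM after 1 h, against 0.609 and 3.01 FPKM and 12.4 and 12.9 FPKM in NN. HORVU1Hr1G001960 had an excess of 1.03, with 69.9 and 41.1 FPKM in TX at 1 h against 27.7 and 27.8 FPKM in NN, over similar controls. HORVU3Hr1G113430 had an excess of 0.94.
On the other side, HORVU2Hr1G033380 rose by 0.89 less in TX, with 18.5 and 19.7 FPKM at 1 h against 41.1 and 34.0 FPKM in NN. HORVU5Hr1G056770 was at 12.8 and 12.9 FPKM in TX and 30.6 and 26.3 FPKM in NN at 1 h, with a TX minus NN difference of -0.81. HORVU2Hr1G095430 followed at -0.48. For all 3 genes the libraries of the varieties did not overlap at 1 h.
Membership depended on the thresholds. HORVU7Hr1G098250 and HORVU5Hr1G079770 were the last kept at 1 h, with smaller differences of 2.003 and 2.005, and HORVU2Hr1G025730 and HORVU5Hr1G102210 were left out at 1.99 and 1.98. At 72 h HORVU2Hr1G099740 and HORVU1Hr1G082410 were the nearest kept, with larger differences of 0.39 and 0.37, and HORVU5Hr1G091800 and HORVU5Hr1G029060 were left out at 0.53 and 0.54. At 2 w HORVU0Hr1G013070 and HORVU1Hr1G060920 were kept at 0.48 and 0.45, and HORVU4Hr1G087230 and HORVU7Hr1G107070 were both left out at 0.58. Without replicate 2 of the NN control roots 26 genes passed, 24 of them members, and with a median-ratio scaling of the libraries 23 passed, all of them members.
The salt experiment gave libraries that played no part in the choice of the members. All 41 members passed the filter of at least 0.5 FPKM in at least 2 of its 16 root libraries, as did 22314 rows in all. In NN the members were well expressed in control roots, with library medians of 4.99 and 5.81 FPKM, and stayed so at 1 h of salt (7.62 and 3.83 FPKM) and at 24 h (6.99 and 5.99 FPKM). After 10 d their medians were 0.108 and 0.260 FPKM, and 11 and 10 members were at 0.
After 10 d of salt 26 of the 41 members (63.4%) were called lower in NN roots and 0 higher, against 13.5% of all tested rows called lower and 9.76% called higher (limma, 2 libraries against 2). The median change was -2.11 over the members and -0.15 over all tested rows. Both 10 d libraries lay below both controls for 38 members, against 47.3% of tested HORVU rows. Of the other 317 genes that met the 1 h condition, 168 (53.0%) were called lower and 11 higher, with a median change of -1.79. The difference between the members and these genes was not tested. Of 18 genes seen only in TX in the waterlogging roots, 5 reached 0.5 FPKM in replicate 2 of NN at 10 d of salt and 0 in replicate 1. Without replicate 2 the median change was -2.41 over the members and -0.20 over all tested rows. Without replicate 1 these medians were -2.08 and -0.13. As in any tissue sample, fewer cells of a type and less RNA per cell cannot be told apart here.

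**Figure D3:**
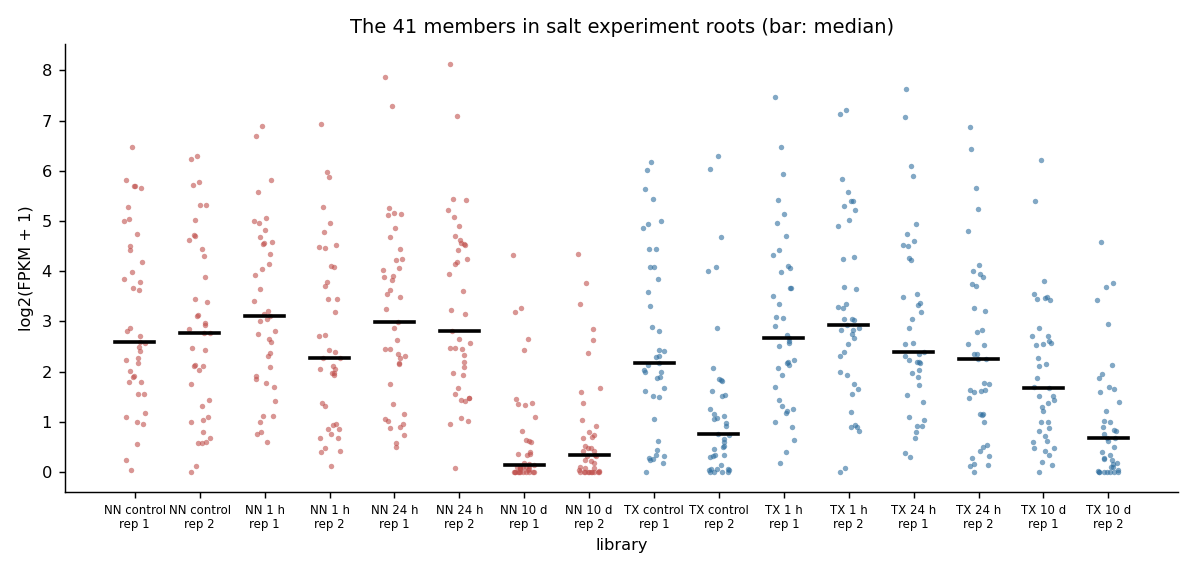
Log2(FPKM + 1) of the 41 members (points) in each of the 16 salt root libraries, NN in red and TX in blue, with a bar at the library median. Both NN libraries at 10 d lie at medians near 0, while the TX control libraries and the TX libraries at 10 d each differ between replicates.

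The largest of these drops was that of HORVU2Hr1G033380, which had 49.4 and 38.9 FPKM in NN control roots and 0.524 and 0.897 FPKM after 10 d of salt, which is -4.72 on the log2 scale with a standard error of 1.10 (limma, adjusted p = 0.0100). This call was lost without any 1 library of the comparison. HORVU2Hr1G085690 followed, from 20.5 and 25.04 FPKM to 0 and 0.0589 FPKM (-4.52, standard error 0.77, adjusted p = 0.00239 from limma). HORVU7Hr1G100570 had 31.9 and 25.4 FPKM in controls, 30.02 and 26.4 FPKM at 1 h, 37.3 and 32.9 FPKM at 24 h, and 0.287 and 0.337 FPKM at 10 d (-4.49, standard error 0.54, adjusted p = 4.2e-04 from limma). This gene was thus steady through the first 24 h in NN and close to absent at 10 d.
The abundant HORVU7Hr1G000260 had 55.4 and 74.6 FPKM in NN control roots of the salt experiment, 102 and 120 FPKM at 1 h, 233 and 277 FPKM at 24 h and 8.12 and 9.22 FPKM at 10 d. Its change was -2.76 at 10 d (standard error 0.43, adjusted p = 0.00154 from limma), and its value of 1.96 at 24 h did not pass the test (standard error 0.43, adjusted p = 0.132 from limma), although both libraries lay above both controls. HORVU1Hr1G001960 was at 51.1 and 53.9 FPKM in NN controls and 4.42 and 4.17 FPKM at 10 d (-3.34, standard error 0.42, adjusted p = 4.9e-04 from limma). HORVU2Hr1G089990, the member with the highest mean in salt control roots, was at 87.6 and 77.9 FPKM in NN controls and 8.69 and 12.7 FPKM at 10 d (-2.86, standard error 0.76, adjusted p = 0.0178 from limma), a call lost without any 1 library and with no filter on low values.
Of the 15 members not called in NN at 10 d, 13 had negative values and 2 positive ones. HORVU3Hr1G058150 had 1.93 and 1.05 FPKM in controls and 5.31 and 6.17 FPKM at 10 d, a value of 1.46 (adjusted p = 0.0622 from limma). HORVU2Hr1G095430 had 0.176 and 0 FPKM in NN controls and 1.72 and 2.02 FPKM at 10 d. In the waterlogging table, normalized apart, its NN controls were at 3.13 and 5.39 FPKM, whereas it was close to absent in both salt controls, and at 24 h of salt it had 8.46 and 8.34 FPKM (3.12, adjusted p = 0.359 from limma). HORVU1Hr1G024860 kept 19.0 and 19.4 FPKM at 10 d against 30.9 and 23.7 FPKM in controls.
The members that lay lowest at 72 h of waterlogging and those called at 10 d of salt overlapped in part. Of the 17 members below -1 in NN at 72 h, 12 were called lower in NN at 10 d of salt, and of the other 24 members 14 were. This is a description, as the first list comes from the libraries that chose the members.
In NN roots at 1 h and 24 h of salt 0 members were called by limma in either direction, with 3 and 4 members at an unadjusted p under 0.05 and median values of -0.07 and 0.28. The calls over all rows were few too, 0.0224% higher and 0.0314% lower at 1 h and 0.108% higher and 0.0493% lower at 24 h.
In TX the values depended on the control libraries. The member median was 3.48 FPKM in replicate 1 and 0.703 FPKM in replicate 2 of the TX salt control roots, and 35 of 41 members were higher in replicate 1, against 58.6% of tested HORVU rows. At 1 h of salt the TX medians were 5.34 and 6.59 FPKM and at 24 h 4.23 and 3.75 FPKM. At 10 d the TX replicates also differed, at 2.203 and 0.593 FPKM, with 33 members higher in replicate 1. Of 24 genes seen only in NN in the waterlogging roots, 5 and 3 reached 0.5 FPKM in the TX libraries at 10 d, 0 and 3 in those at 1 h, 1 in each at 24 h and 0 in the TX controls. What sets these replicates apart was not tested.
At 1 h of salt in TX 3 members (7.32%) were called higher by limma and 0 lower, against 0.820% and 0.977% of all tested rows. The share was alike in the other 317 genes of the 1 h condition, with 7.26% called higher and 0.315% lower. HORVU4Hr1G080100 had 0.350 and 0 FPKM in the TX controls and 3.53 and 7.30 FPKM at 1 h (2.40, standard error 0.52, adjusted p = 0.0438 from limma). HORVU4Hr1G012200 had 1.07 and 0.703 FPKM in controls and 7.44 and 4.89 FPKM at 1 h (1.91, standard error 0.32, adjusted p = 0.0182 from limma). HORVU7Hr1G101350 had 0.215 and 0 FPKM in controls and 1.71 and 4.26 FPKM at 1 h (1.78, standard error 0.36, adjusted p = 0.0343 from limma). Each had both 1 h libraries above both controls. A further 16 members had an unadjusted p under 0.05, and the median value over the members was 0.98. Without replicate 1 of the TX controls the median value was 1.81 over the members and 0.17 over all rows. Without replicate 2 of the TX controls these medians were 0.61 and -0.01. Calls over the members and over all rows both moved widely when a library was left out, and the member calls did not hold in every such fit.
At 24 h of salt in TX 2 members (4.88%) were called higher and 0 lower, against 0.578% and 0.238% of all rows. Here too the other 317 genes of the 1 h condition were alike, with 4.42% called higher and 0 lower. HORVU4Hr1G080100 was at 10.6 and 6.10 FPKM (2.97, standard error 0.52, adjusted p = 0.0273 from limma), and HORVU6Hr1G080150 went from 0.200 and 0.0495 FPKM in controls to 7.23 and 5.96 FPKM (2.75, standard error 0.37, adjusted p = 0.00711 from limma). The median value was 0.49 over the members and -0.04 over all rows. These medians were 1.09 and 0.06 without replicate 1 of the TX controls, and 0.01 and -0.15 without replicate 2. The calls did not all hold when a library was left out.
At 10 d of salt in TX 4 members (9.76%) were called lower and 0 higher, against 1.27% and 2.25% of all rows, and the median value was -0.31. For the other 317 genes of the 1 h condition 4.73% were called lower and 0.631% higher, with a median of -0.30. HORVU7Hr1G000260 fell from 48.8 and 64.9 FPKM in controls to 10.6 and 2.68 FPKM (-3.13, standard error 0.43, adjusted p = 0.00453 from limma). HORVU1Hr1G001960 fell from 42.2 and 77.4 FPKM to 4.82 and 6.71 FPKM (-3.12, standard error 0.42, adjusted p = 0.00404 from limma). HORVU1Hr1G076700 and HORVU1Hr1G082410 were also called, at -1.77 and -1.52 (adjusted p = 0.0226 and 0.0283 from limma). The first 2 of these genes and HORVU1Hr1G076700 were called in NN as well. The first 2 were called in TX under every alternative run. For 8 members both TX libraries at 10 d lay below both controls, against 12.1% of tested HORVU rows. Without replicate 2 of the TX controls the median value was -1.23 over the members and -0.002 over all rows. Without replicate 2 at 10 d these medians were 0.05 and 0.19.

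**Figure D4:**
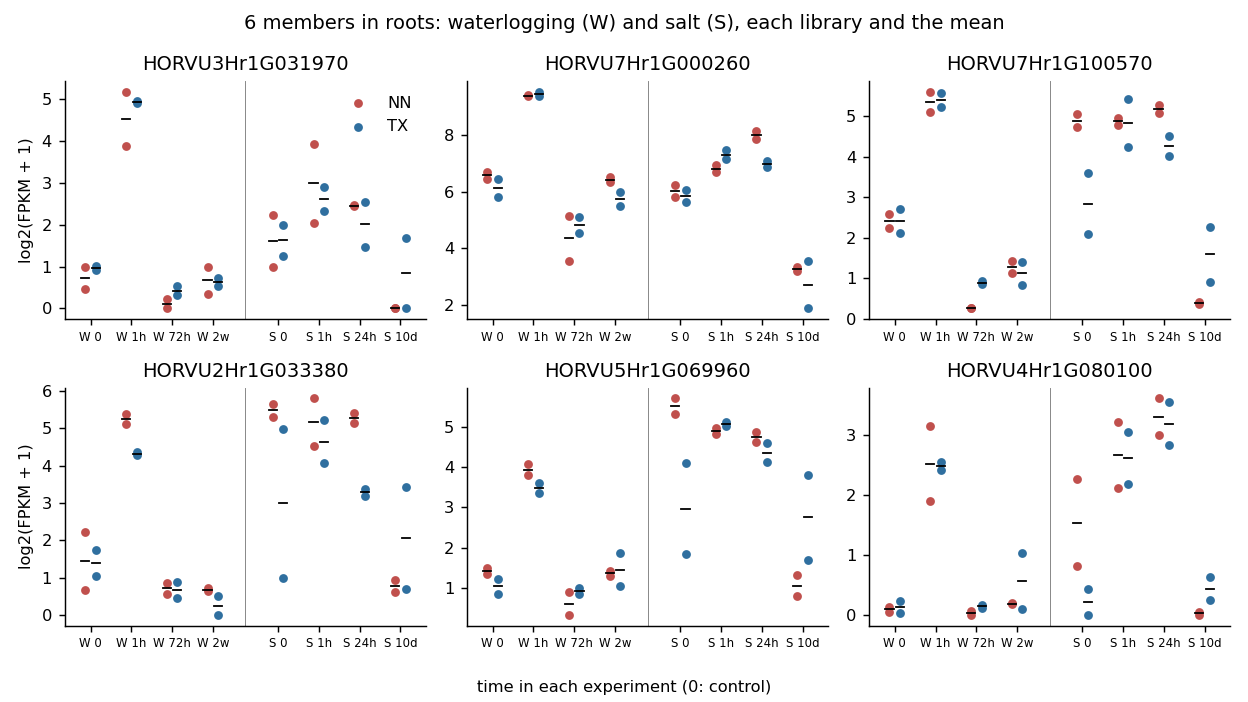
Log2(FPKM + 1) of 6 members in every root library (points) with the mean of 2 libraries (bars), waterlogging (W) on the left of each panel and salt (S) on the right, NN in red and TX in blue. Within the waterlogging roots all 6 peak at 1 h, as the rule required, while some stand higher in salt roots. In NN 0 of them were called at 1 h of salt, and each has its lowest NN salt level at 10 d (the tables were normalized apart).

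The response at 10 d of salt was compared between the varieties directly, in a contrast added after the data were seen. HORVU7Hr1G101350 was the one member called by limma (2.44% of members, against 0.574% of rows called in this direction), with a TX minus NN difference of 2.48 (standard error 0.51, adjusted p = 0.0426). It had 3.05 and 3.38 FPKM in NN controls and 0 in both NN libraries at 10 d, and 0.215 and 0 FPKM in TX controls and 0.753 and 0.207 FPKM at 10 d. The median difference was 1.73 over the members and 0.27 over all rows, and 23 members had an unadjusted p under 0.05. Among the other 317 genes of the 1 h condition 2.84% were called higher in this contrast and 0 lower, with a median of 1.46. Without replicate 1 of the TX controls the median was 2.19 over the members and 0.35 over all rows. These medians were 2.16 and 0.42 without replicate 2 of TX at 10 d, and 1.08 and 0.16 without replicate 2 of the TX controls. Calls over the members and over all rows both moved widely when a library was left out, and the member call did not hold in every such fit.
The salt control roots themselves differed between the varieties for a few members. For comparison, 3.15% of the other 317 genes of the 1 h condition were called lower in TX than in NN and 1.26% higher. In TX 4 members were called lower than in NN and 0 higher, against 2.81% and 2.38% of rows (limma). They were HORVU5Hr1G056770, at 1.85 and 1.11 FPKM in TX and 11.8 and 7.69 FPKM in NN (-2.10, standard error 0.44, adjusted p = 0.0175), with HORVU1Hr1G018200, HORVU7Hr1G101350 and HORVU7Hr1G100570. The median TX minus NN value was -1.07 over the members and -0.16 over all rows. Without replicate 1 of the TX controls, the library with the higher member levels, these medians were -1.64 and -0.26. Without replicate 2 of the TX controls they were -0.38 and -0.02. The member median was -1.01 without replicate 1 of the NN controls and -0.999 without replicate 2. The calls did not hold in every such fit.
Members stood higher in the control roots of the salt experiment than in those of the waterlogging experiment. The mean was higher in salt for 31 members in NN and for 31 in TX, against 45.9% and 46.4% of the HORVU rows with at least 0.5 FPKM in both. In NN both salt controls lay above both waterlogging controls for 29 members, and in TX for 12. The share of all HORVU rows with this separation was not counted, so these numbers cannot be called unusual. The tables were normalized apart, and a rule that asks for a rise over the waterlogging controls favours genes that were low there, so these levels are given side by side without a test. For HORVU5Hr1G069960 the NN controls were at 1.85 and 1.56 FPKM in the waterlogging table and 51.2 and 39.0 FPKM in the salt table, the latter above its 1 h values under waterlogging, 15.8 and 13.02 FPKM. HORVU2Hr1G033380 and HORVU1Hr1G001960 also had salt control levels near or above their 1 h levels under waterlogging in NN.
Most members varied together over the 16 salt root libraries. The Pearson correlation of a member's log2(FPKM + 1) with the median of the other members had a median of 0.85 (quartiles 0.73 and 0.93) and was above 0.7 for 31 of 41 members. It was above 0.7 for 20.7% of the other tested HORVU rows and for 63.4% of the other 317 genes of the 1 h condition. HORVU3Hr1G068890 (0.98), HORVU7Hr1G078760 (0.98) and HORVU2Hr1G089990 (0.97) were the most alike. HORVU3Hr1G058150 (-0.45), HORVU2Hr1G095430 (-0.02) and HORVU7Hr1G122770 (0.27) were the least alike. The libraries share groups and controls, so these values are descriptions over 16 points.
Members were mostly root transcripts. In the salt controls of NN 34 of 41 were called higher in roots than in leaves by limma and 0 lower, against 27.7% and 11.6% of 24292 rows, with a median difference of 2.50. In TX 23 were called higher and 0 lower, against 21.0% and 13.3%. As shares these are 82.9% of members in NN and 56.1% in TX. The other 317 genes of the 1 h condition were near them, with 72.2% and 55.8% called higher and 5.68% and 6.62% lower. In TX the median difference was 1.29 over the members and 0.12 over all rows. With replicate 1 of the control roots left out these medians were 0.49 and 0. As the members were chosen for levels in roots, this direction is no independent result. In all 32 leaf libraries 20 members stayed under 0.5 FPKM, and HORVU1Hr1G018200 and HORVU3Hr1G113430 were listed at 0 in every one.
The exceptions had clear leaf levels. HORVU1Hr1G024860 had 32.2 and 52.1 FPKM in NN salt control leaves, similar to its 30.9 and 23.7 FPKM in the roots, but 0.879 and 41.3 FPKM in the TX control leaves. HORVU7Hr1G000260 was under 4 FPKM in 15 of the 16 salt leaf libraries and at 54.0 FPKM in replicate 1 of the TX control leaves, against 0.0304 FPKM in replicate 2.
Few members were measurable in leaves under salt. Only 10 of 41 passed the filter on low values in the 16 salt leaf libraries, and 3 of these 10 were called by limma at some time. HORVU1Hr1G060920 had 0.496 and 0.198 FPKM in NN control leaves and 4.98 and 4.88 FPKM after 10 d of salt (2.15, standard error 0.30, adjusted p = 1.9e-04 from limma). In TX it had 2.71 and 7.17 FPKM in control leaves and 14.6 and 17.7 FPKM at 10 d (1.64, standard error 0.30, adjusted p = 0.00244 from limma). It was the 1 member called at 10 d in each variety. Of all rows, 15.3% in NN and 8.15% in TX were called higher, and 12.5% and 7.83% lower. In NN roots the gene lay lower at 10 d, at a value that did not pass (-1.28, adjusted p = 0.0651 from limma).
HORVU7Hr1G100570, which had a steady level in NN roots through 24 h, was called higher in NN leaves at 1 h and 24 h and in TX leaves at 24 h. It had 0.192 and 0.277 FPKM in NN control leaves, 1.75 and 1.79 FPKM at 1 h, 2.82 and 1.69 FPKM at 24 h and 0.256 and 0.270 FPKM at 10 d. The changes were 1.17 at 1 h (adjusted p = 0.0485 from limma) and 1.38 at 24 h (adjusted p = 0.0235 from limma), where 1.22% and 2.61% of rows were called higher and 3.40% and 3.74% lower. In TX it had 2.51 and 0.650 FPKM in control leaves and 4.49 and 3.36 FPKM at 24 h, a change of 1.02 (adjusted p = 0.0297 from limma), where 4.79% of rows were called higher and 12.5% lower. The calls at 1 h and 24 h in NN were lost without any 1 library of the comparison, and that in TX without any but replicate 1 of the controls.
HORVU5Hr1G069960 was called higher in NN leaves at 24 h, from 1.96 and 2.85 FPKM to 8.58 and 6.94 FPKM (1.37, standard error 0.30, adjusted p = 0.0166 from limma), a call lost without any 1 library. In TX leaves it had 5.11 and 4.83 FPKM in controls, 4.95 and 2.63 FPKM at 1 h and 9.05 and 9.30 FPKM at 24 h, called higher at 24 h than at 1 h (1.13, adjusted p = 0.0360 from limma) with HORVU1Hr1G060920 (1.05, adjusted p = 0.0452 from limma), where 2.78% of rows were called higher and 3.66% lower. The call of HORVU1Hr1G060920 was lost without any 1 library, and that of HORVU5Hr1G069960 without any but replicate 1 at 1 h. In NN leaves 0 of the 10 members were called at 24 h against 1 h by limma, with 3 at an unadjusted p under 0.05, against 3.83% of rows higher and 2.93% lower. In TX leaves at 1 h 0 of the 10 members were called by limma, with 1 at an unadjusted p under 0.05, against 2.98% of rows higher and 8.34% lower. For the TX minus NN difference of the 1 h response of leaves 0 were called, with 0 at an unadjusted p under 0.05, against 0.202% and 0.0960% of rows.
In leaves of waterlogged plants the members split the replicates of most groups. At least 1 FPKM was reached by 18 and 19 members in the TX libraries at 1 h, but by 16 and 6 in the NN libraries at that time. The numbers were 4 and 18 for NN after 72 h, 16 and 3 for NN after 2 w, 14 and 5 for TX after 72 h, and 8 and 7 for TX after 2 w. The NN controls held 12 and 3 such members and the TX controls 6 and 6. In the salt leaves this number was 3 to 8 in every library. The median over all HORVU rows split the waterlogging leaves in the same groups and direction. In NN it was 0.234 and 0.0546 FPKM at 1 h and 0.068 and 0.236 FPKM at 72 h. At 2 w it was 0.354 and 0.101 FPKM in NN, and in the NN controls 0.247 and 0.0852 FPKM. In TX it was 0.226 and 0.0587 FPKM at 72 h. The TX controls also differed, at 0.0688 and 0.161 FPKM, where the member numbers did not. The median of the 20 root-confined genes was 0 in both TX libraries at 1 h and in replicate 1 of NN at 1 h, where many members were high. Their highest value moved with the split. It was 3.81 and 0.266 FPKM in NN at 1 h, 0.250 and 1.97 FPKM in NN at 72 h, 3.24 and 0.452 FPKM in NN at 2 w and 2.19 and 0.305 FPKM in TX at 72 h, and the controls of NN had 3.27 and 0.0746 FPKM. The part of these genes in the split was not tested.

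**Figure D5:**
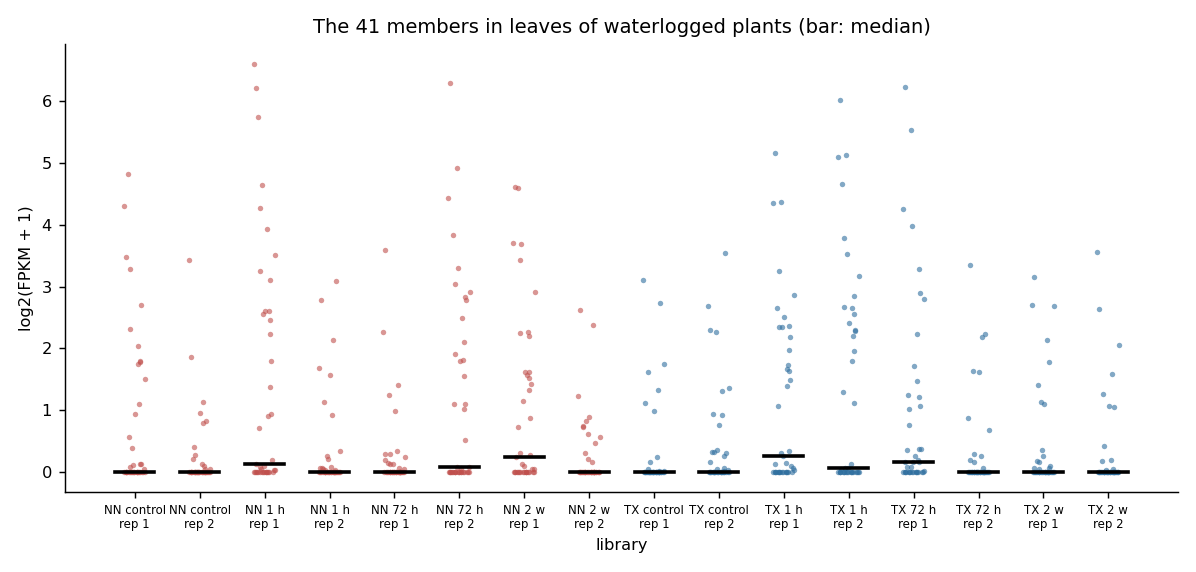
Log2(FPKM + 1) of the 41 members (points) in each of the 16 leaf libraries of the waterlogging experiment, NN in red and TX in blue, with a bar at the library median. Up to 19 members reach 1 FPKM in single libraries, and in most groups the other replicate holds far fewer. The median over all HORVU rows splits in those groups too.

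HORVU2Hr1G089990 shows this split in full. It had 24.1 and 0.202 FPKM in NN leaves at 1 h, 0 and 29.3 FPKM at 72 h and 11.9 and 0.771 FPKM at 2 w, against 0.304 and 0 FPKM in controls. In TX leaves it had 19.7 and 33.9 FPKM at 1 h, 45.2 and 0 FPKM at 72 h and 1.20 and 0 FPKM at 2 w, against 0 and 3.79 FPKM in controls. HORVU7Hr1G078760 was high in a control library as well, at 27.4 and 0.161 FPKM in NN controls and 52.9 and 0.0319 FPKM in NN at 1 h. The ENSRNA rows took 0.610% to 36.1% of the FPKM in these leaf libraries, and their part in the split was not tested.
Of the 41 members 19 passed the filter in the waterlogging leaves, and 0 were called at 1 h in NN or in TX by limma. In NN 1 had an unadjusted p under 0.05, and in TX 7 did, all of them higher. Members near 0 in control leaves could pass the filter only through libraries where they were high, so for them this direction was fixed in advance. HORVU2Hr1G033380, for example, had 0 and 0.241 FPKM in TX control leaves and 1.80 and 3.95 FPKM at 1 h. The background was low too, with 0.0608% of rows called higher and 0.683% lower in NN, and 0.0748% and 0.641% in TX. The median value over the 19 members was 0.69 in NN and 1.82 in TX, against -0.11 and 0.07 over all tested rows. Of the other 317 genes of the 1 h condition 229 were tested and 0 called, with medians of 0.76 in NN and 1.00 in TX. Over all 41 members, with no filter, the member median was 0.08 in NN and 0.07 in TX. The NN median was -0.06 without replicate 1 at 1 h and 2.22 without replicate 2. HORVU5Hr1G069960 had close replicates in TX, with 0.990 and 0.697 FPKM in TX control leaves and 4.72 and 4.34 FPKM at 1 h, a value of 1.59 (adjusted p = 0.116 from limma). In NN it had 0.922 and 0.936 FPKM in controls and 5.08 and 1.98 FPKM at 1 h. Its 1 h libraries lay above the controls in both varieties.
By the chromosome written in their identifiers, the members lay on all 7 barley chromosomes, with 7 on 1H, 9 on 2H, 6 on 3H, 4 on 4H, 6 on 5H, 2 on 6H and 6 on 7H, and 1 on no assigned chromosome. The largest share was 22.0% on 2H, which holds 16.4% of all HORVU rows. The nearest identifiers were HORVU1Hr1G082410 and HORVU1Hr1G082460, with 2 rows between them. The 1 h difference under waterlogging was 2.82 in NN and 3.08 in TX for the first of them, and 2.07 in NN and 2.31 in TX for the second. Whether any members share sequence was not analysed here.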

How the data were processed

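RNA was sequenced from leaves and roots of 2 barley varieties in a salt and a waterlogging experiment, 64 libraries in 32 groups, with groups and replicates taken from the sample labels. The labels and tables hold 2 replicates per group where the methods speak of 3. The authors deposited FPKM, per the labels after HISAT2 and featureCounts 1.5.0, in 1 table per experiment. The build of the genome was not given in the sources used here. Of the tables' other value columns 82 were not used. FPKM keep no total count, so the depth is unknown.
The tables were treated as normalized apart. For tests, log2(FPKM + 1) was fitted by limma 3.58.1 under R 4.3.3 (trended empirical Bayes), over the 16 libraries of an experiment and tissue, or both tissues for roots against leaves. Rows needed 0.5 FPKM in 2 or more libraries, with Benjamini-Hochberg adjustment over all rows. Of 41 members, 41 passed in salt roots, 10 in salt leaves and 19 in waterlogging leaves. The fit was tested on simulated data. Python 3.11.15 with pandas 2.3.3, numpy 2.4.6 and matplotlib 3.10.9 did the rest.
The members, tests and alternatives were chosen with earlier results of these data known. Named genes were the first 8 in rank, the 5 most abundant at 1 h, the 5 called in most contrasts, those with the 3 largest and 3 smallest variety differences at 1 h, the 3 highest in salt control roots, those nearest each threshold and the 2 called with the largest change in each direction of a contrast; other genes were named after their values were seen. Alternatives were to leave out each library, to keep low rows, to scale by median ratios or by HORVU totals, to use a pseudocount of 0.1 and to block on the replicate number. The RefSeq gene table of barley held 0 of the identifiers.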

Additional observations from a re-analysis of the deposited data

Results flagged for a closer look

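HORVU5Hr1G069960 moved in opposite directions in the salt roots of the varieties, with both NN libraries below and both TX libraries above their controls at 1 h and at 24 h. After 1 h the value was -0.62 in NN and 2.11 in TX, a TX minus NN difference of 2.73. After 24 h it was -0.77 in NN and 1.39 in TX, a difference of 2.16. The 2 differences were not tested. None of these 4 values passed the limma test against control. The TX controls were at 16.1 and 2.60 FPKM and the NN controls at 51.2 and 39.0 FPKM, while all TX libraries at 1 h and 24 h lay between 16.4 and 34.0 FPKM.
HORVU7Hr1G101350 differed between the varieties in its response to 10 d of salt in roots, by 2.48 (TX minus NN, limma adjusted p = 0.0426). It was at 0 in both NN libraries at 10 d, and the TX libraries, at 0.753 and 0.207 FPKM, were low as well. The NN controls were at 3.05 and 3.38 FPKM but the TX controls at 0.215 and 0 FPKM, so in TX there was little room to fall. The contrast was added after the data were seen, and 0 members were called in it with no filter on low values or with median-ratio scaling.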

How the results depend on the processing

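The fall in NN roots at 10 d of salt kept its direction, although median-ratio scaling called 1 member higher beside 26 lower. It was called for 22 to 30 members under the other settings and for 19 without any 1 library, and 16 genes were called under every alternative. With no filter on low values 1 member was called in TX roots at 1 h, 1 in TX roots at 24 h, 1 between the control roots, and 0 in the 10 d variety difference and in leaves at 1 h in NN, 24 h in NN, 24 h in TX and 24 h against 1 h in TX. A pseudocount of 0.1 gave 5 for the 10 d variety difference, 2 in NN leaves at 10 d, 1 for TX leaves at 24 h against 1 h, and 81 genes passing the rule, 28 of them members. Median-ratio scaling gave 4 in TX roots at 24 h, 0 for the 10 d variety difference, 2 in TX leaves at 24 h and 23 genes passing the rule. HORVU rows scaled to equal totals gave 2 for the 10 d variety difference and 1 for TX leaves at 24 h against 1 h. Whether equal replicate numbers pair the libraries is not given by the labels, and the correlations did not settle it. Replicate deviations correlated above 0.1 in 10 of 28 pairs of groups in salt roots, 4 in salt leaves and 11 in waterlogging leaves. The correlations ran from -0.32 to 0.51, from -0.31 to 0.26 and from -0.68 to 0.64, in the same order. With the replicate number as a block 7 members were called in TX roots at 1 h, 7 in the 10 d variety difference, 8 between control roots and 1 for TX leaves at 24 h against 1 h. Leaving out a library gave, counting both directions, 0 to 23 in TX roots at 1 h, 0 to 9 at 24 h, 4 to 9 at 10 d, 0 to 22 for the 10 d variety difference, 0 to 21 between control roots, 0 in NN leaves at 1 h and at 24 h, 0 to 2 in TX leaves at 1 h, 0 to 3 at 24 h, 1 to 4 at 10 d, 0 to 1 at 24 h against 1 h, 0 to 3 for the 1 h variety difference in leaves, 30 to 32 and 9 to 28 for roots against leaves in NN and TX, and 26 to 44 genes passing the rule. The calls over all rows also moved widely when a library was left out, so these counts are no result about the members alone. The causes were not tested. Of 105 single-gene calls, 56 held under every alternative.
With 2 libraries a group and no totals in FPKM, values near 0 set no limit on expression.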
